A study of Mus musculus with 16 samples.

Results

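The 34 genes described here encode the structural proteins of the sarcomere and its anchoring lattice in the mouse gastrocnemius: thin filament proteins (9 genes), titin and myosin-binding proteins (3), M-band proteins (3), Z-disc proteins (10), LIM-domain proteins of the Z-disc (6) and proteins that tie the Z-discs to each other and to the cell border (3). They were chosen by symbol, as a fixed list, from the 35415 genes of the deposited tables, and all 34 passed the filter on low counts. RNA from 16 mice was sequenced, with 4 mice in each of 4 groups, and all were wild-type male BALB/c mice aged 8 weeks when purchased. The C mice were neither inoculated with tumor cells nor trained, the E mice were trained, the T mice carried the tumor model and the TE mice had both. Training was forced treadmill running of 60 min a day, at a belt speed of 14 m/min, over 4 weeks with 6 training days in each. The tumor model was a subcutaneous injection of CT26 cells, a colon carcinoma line of BALB/c origin, at the left hind limb, and the mice without tumor received saline at that site. C and T mice were placed on a treadmill that did not move. The labels do not say whether each sequenced TE mouse bore a tumor, nor from which leg the muscle came.

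A sarcomere is the contractile unit of striated muscle, in which actin thin filaments slide past myosin thick filaments. The thin filaments are anchored at the Z-disc by alpha-actinin, the thick filaments are held together at the M-band by myomesins, and titin spans from one to the other. The gastrocnemius of the mouse is mostly made of fast fibers, and several of these proteins exist as a fast-type and a slow-type form encoded by different genes.

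Library totals ranged from 35628211 to 37635741 counts. The 34 genes took 9.43% ± 0.20 of the counts of a library in C, 9.32% ± 0.29 in E, 9.91% ± 0.46 in T and 9.67% ± 0.13 in TE (SD, n = 4). Fast fiber markers (11 genes) summed to between 105458 and 130945 CPM (counts scaled to library size) in the 16 libraries and slow fiber markers (8 genes) to between 805 and 2909 CPM, so the fast markers exceeded the slow ones in every mouse. Of the 5 heart markers, Nppa was at 0 in every library and Tnni3 and Ryr2 were at no more than 0.253 and 0.0518 FPKM, whereas Myh6 was at 3.42 to 16.4 FPKM, and the list summed to 21.6 to 106 CPM, highest in T4. Since whole muscle was sequenced, fewer cells of a type and less RNA per cell cannot be told apart.

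The level of each gene was read as FPKM, fragments scaled to gene length and library size, which depends on the gene length the authors used. Acta1, skeletal alpha-actin and the core of the thin filament, had the highest mean level of 20230 FPKM (16 libraries). It was followed by Tpm1, the fast-type alpha-tropomyosin, at 2892 FPKM, and by Tcap, telethonin, which caps titin at the Z-disc, at 2220 FPKM. The lowest were Synpo2l, a Z-disc actin-binding protein, at 33.4 FPKM, Tpm3, the slow-type tropomyosin, at 17.9 FPKM, and Myom3, a myomesin of intermediate-speed fibers, at 6.55 FPKM. In the order of mean level, the ranges over the libraries overlapped for 31 of 33 pairs of neighbors. That sets one gene in any mouse against the next gene in any other mouse. Within a mouse the order can still hold: Tpm1 was above Tcap, Synpo2l above Tpm3 and Tpm3 above Myom3 in every mouse. The level of 7 genes was above 1000 FPKM and that of 13 was under 100 FPKM.

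**Figure D1:**
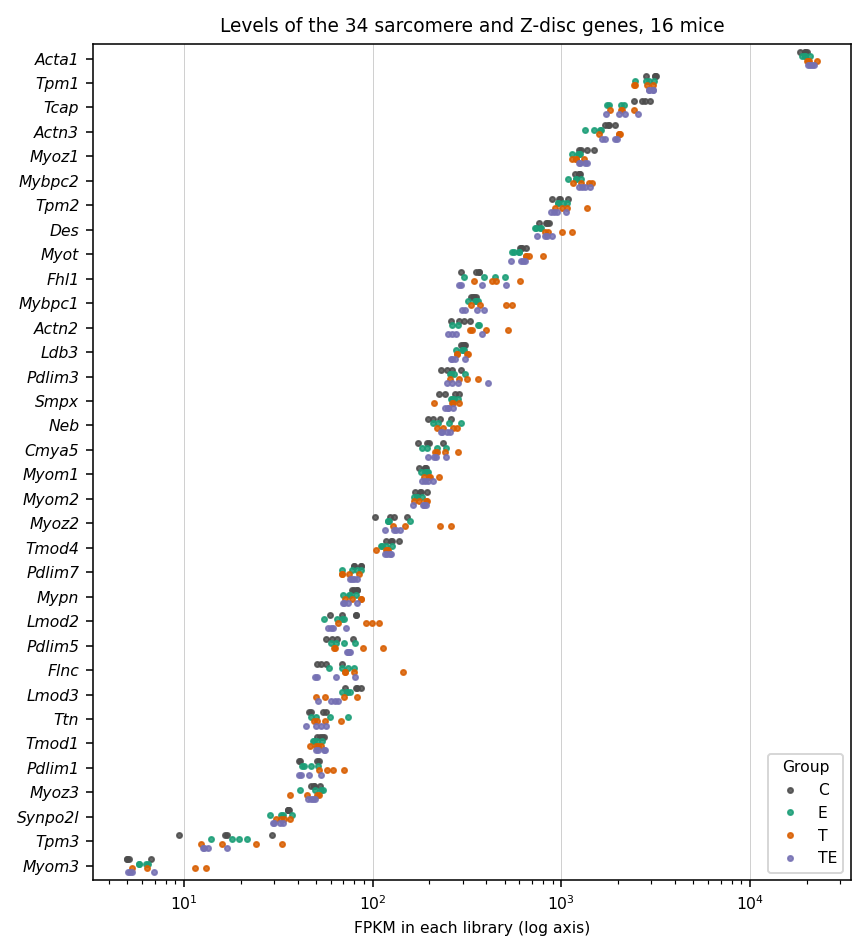
FPKM of each of the 34 genes (vertical axis, ordered by mean level) in each of the 16 libraries (log horizontal axis), with 1 point for each mouse colored by group. Acta1 stands apart at the top with a mean of 20230 FPKM, Myom3 is lowest with 6.55 FPKM, and the ranges of most neighbors overlap.

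The spread between mice of the same group did not simply follow the level. Pooled within groups, the SD of log2 FPKM was 0.058 for Acta1 and reached 0.49 for Tpm3, 0.35 for Myom3, 0.32 for Flnc and 0.31 for Fhl1, whereas it was 0.073 for Tmod1 and 0.10 for Synpo2l, which are among the less abundant. The highest library was less than 1.5 times the lowest for 15 genes and more than 2 times the lowest for 7 genes.

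The comparison of T with C asked whether the sarcomere genes of sedentary mice differed with the tumor. No gene of the 34 passed the test (edgeR quasi-likelihood test, Benjamini-Hochberg adjusted p under 0.05), whereas 0.678% of the 14749 genes tested did. The smallest adjusted p in edgeR was 0.0726, for Pdlim1. At an unadjusted p under 0.05 there were 16 genes (47.1% of the 34), 14 with a higher and 2 with a lower mean in T, where 14.2% of all genes tested reached that level (8.23% higher, 5.96% lower). The log2 fold change was above 0 for 25 genes and below 0 for 9, with a median of 0.15 beside -0.0012 over all genes tested. All 8 slow fiber markers were also above 0 (median log2 fold change 0.42), 1 of them at an unadjusted p under 0.05. Their sums overlapped, at 1036 to 2909 CPM in T and 805 to 2110 CPM in C. In 6 genes (Pdlim1, Flnc, Mybpc1, Actn2, Myot and Acta1) the T libraries were all above the C libraries in CPM, as they were for 4.03% of all genes tested. In FPKM this held for 3 of the 6 (Pdlim1, Flnc and Acta1), and Tcap was lower in every T library than in every C library. The share of 4.03% is for CPM and the higher direction, and no share over all genes was taken in FPKM. DESeq2 on the same counts called 3 of the 34 (Myom3, Myoz2 and Pdlim1), beside 2.81% of the genes it gave an adjusted p. The 16 genes at an unadjusted p under 0.05 in edgeR were 11 with the summed slow fiber markers as a covariate, 9 without mouse T3 and 2 without mice T3 and T4. T3 and T4 were left out together, here and below, after their high values were seen. This also leaves fewer T mice, so a fall in counts and fold changes can follow from that choice alone.

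The comparison of E with C asked the same for training alone, and shares the C mice with the one above. Again 0 of the 34 genes passed in edgeR, where 0.0881% of all genes tested did, and the smallest adjusted p was 0.0854, for Tcap. At an unadjusted p under 0.05 there were 3 genes (8.82% of the 34), a smaller share than the 14.2% of all genes tested. The latter were 8.51% higher and 5.67% lower. The 3 genes (Tcap, Actn3 and Myoz1) had a lower mean in E. They are Z-disc genes, but 2 of the 10 Z-disc genes had a log2 fold change above 0. In CPM and in FPKM the E libraries were all below the C libraries in Tcap, Actn3 and Myot, as in CPM for 4.02% of all genes tested. The median log2 fold change was -0.038. DESeq2 called 1 gene, Tcap (1.85% of the genes it gave an adjusted p), and the count at an unadjusted p under 0.05 was 8 without mouse C3, 6 without T3, 5 without T4, 7 without both of these and 7 where only E and C were fitted.

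The comparison of TE with T asked about training under tumor, and shares the T mice with the first one. In edgeR 0 of the 34 genes passed, as did 0.0% of all genes tested, and 0 passed in DESeq2 (0.0426% of its genes). At an unadjusted p under 0.05 there were 11 genes (32.4% of the 34), all with a lower mean in TE, where 5.88% of all genes tested reached it (3.01% lower), and this was 3 without mice T3 and T4. In the same comparison all 8 slow fiber markers had a lower mean in TE at an unadjusted p under 0.05 (0 passed in edgeR, median log2 fold change -0.89), with sums of 1036 to 2909 CPM in T and 881 to 1196 CPM in TE. With that sum as a covariate the 11 genes were 4. The log2 fold change was below 0 for 28 genes and above 0 for 6, with a median of -0.13. In CPM the TE libraries were all below the T libraries in Pdlim1 and Myot, as for 1.34% of all genes tested, and in FPKM in Myot but not in Pdlim1. The 11 genes were Pdlim1, Lmod2, Myom3, Myoz2, Mybpc1, Flnc, Myot, Actn2, Des, Tpm2 and Tpm3.

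The comparison of TE with E asked about the tumor among trained mice. In edgeR 0 of the 34 genes passed (0.231% of all genes tested did), and DESeq2 also called 0 (1.19% of its genes). At an unadjusted p under 0.05, Actn3, Mybpc2 and Acta1 had a higher mean in TE, beside 9.23% of all genes tested (3.7% higher). The 3 were 7 where only these groups were fitted and 5 without T2 or without TE2, and leaving out a mouse took Mybpc2 (E2 or TE3) or Acta1 (E3 or TE2) above that level. In CPM the TE libraries were all above the E libraries in Actn3, Acta1 and Des (2.68% of all genes tested) and all below them in Lmod3 (3.95%), and in FPKM this held for Actn3 and Lmod3 but not for Acta1 and Des.

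**Figure D2:**
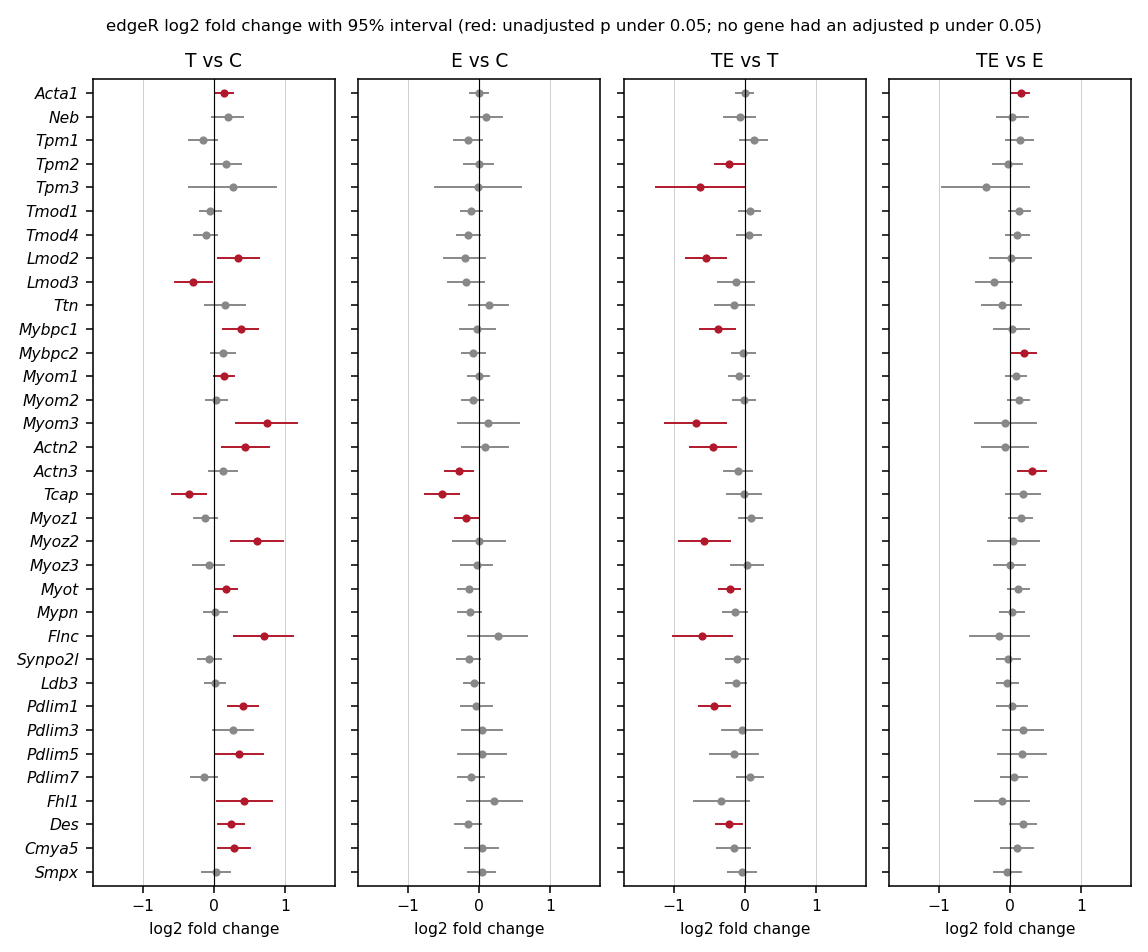
Log2 fold change from edgeR (horizontal axis) with its 95% interval for each of the 34 genes (vertical axis, by role) in 4 comparisons, in red where the unadjusted p is under 0.05. Red points number 16 for T vs C, 3 for E vs C, 11 for TE vs T and 3 for TE vs E, and no gene has an adjusted p under 0.05.

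Of the thin filament genes, the most abundant, Acta1, had the smallest SD of log2 FPKM within groups. Over the 16 libraries its highest value was 1.23 times its lowest, and for Tmod1 this was 1.21 times. Values are given from here on in the order of mouse 1 to mouse 4 of each group. Acta1 was at 19452, 19939.6, 18370.5 and 19502 FPKM in C, at 20694, 19627, 18897 and 19554 in E, at 20389, 20012, 20512 and 22552 in T, and at 20745, 21729, 20299.6 and 21400.0 in TE. Each of the 8 libraries with tumor cells injected was above the 4 C libraries, and mouse T4 was the highest of all. The log2 fold change of Acta1 in edgeR was 0.14 (SE 0.06, adjusted p = 0.300) for T vs C and 0.14 (SE 0.06, adjusted p = 0.455) for TE vs E.

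The 3 tropomyosins, which wrap around actin and regulate access to myosin, were measured. Tpm1 was at 3166, 3141, 2804 and 3137 FPKM in C, at 3107, 2443, 2806 and 2926 in E, at 3076, 2849.7, 2429 and 2455 in T, and at 2921, 2899, 3071 and 3042 in TE. Tpm2, the beta-tropomyosin, was at 984, 1090.3, 891 and 975 FPKM in C, at 1019.6, 1076, 955 and 963 in E, at 926, 1006, 1069 and 1359 in T, and at 1057, 910.1, 878 and 947 in TE. The 3 lowest values of Tpm1 were in T3, E2 and T4, whereas T4 had the highest value of Tpm2. Tpm3 was at 16.9, 9.45, 16.4 and 29.4 FPKM in C, at 18.001, 13.99, 19.5 and 21.6 in E, at 15.9, 12.3, 24.1 and 33.3 in T, and at 16.98, 13.4, 12.8 and 12.6 in TE. Within the C group alone it ran from 9.45 to 29.4 FPKM, and no comparison of it passed the test.

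Tropomodulins cap the pointed ends of the thin filaments. Tmod1 was at 55.2, 53.8, 52.8 and 50.6 FPKM in C, at 54.1, 51.04, 48.2 and 48.6 in E, at 53.03, 51.7, 46.4 and 50.1 in T, and at 55.3, 56.2, 51.7 and 50.3 in TE. Tmod4, the form typical of fast muscle, was at 138, 126, 117 and 127 FPKM in C, at 127, 110.2, 113 and 118 in E, at 119, 117, 104 and 121 in T, and at 124, 119.6, 125 and 117 in TE. Their groups overlapped in every comparison. Of the exon bases of Tmod1, 24.4% are shared with Tstd2 on the opposite strand, and the strand setting of the counting is not stated, so that part of its counts is uncertain.

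Leiomodins lengthen or nucleate thin filaments. Lmod2 (GRCm39 chr6:24597685-24605753) was at 81.2, 69.2, 59.6 and 82.1 FPKM in C, at 64.7, 69.1, 55.3 and 70.8 in E, at 65.8, 92.7, 99.6 and 108 in T, and at 58.3, 61.9, 59.9 and 72.4 in TE. Mice T2, T3 and T4 were above all other mice, and mouse T1 was within the range of C. In edgeR, Lmod2 had a log2 fold change of 0.35 (SE 0.13, adjusted p = 0.245) for T vs C and -0.55 (SE 0.13, adjusted p = 0.689) for TE vs T. Lmod3 went the other way, with a log2 fold change of -0.29 (SE 0.12, adjusted p = 0.286) for T vs C in edgeR (-0.17 without T3) and a range of 71.2 to 86.9 FPKM in C and 50.1 to 82.2 FPKM in T. Neb, nebulin, which runs along the thin filament, ranged from 196 to 294 FPKM over the 16 libraries.

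Myosin-binding protein C links the thick filament to titin and actin, in a slow-type form (Mybpc1) and a fast-type form (Mybpc2). Mybpc1 (GRCm39 chr10:88354062-88441175) was at 332, 354, 343 and 342 FPKM in C, at 319.6, 363, 347 and 353 in E, at 330.3, 371, 507 and 544 in T, and at 387, 298, 358 and 310.2 in TE. Mice T3 and T4 were above all others, and T1 and T2 were within the range of the other groups. Mybpc2 was at 1239, 1241, 1257 and 1182 FPKM in C, at 1199.7, 1091, 1192 and 1278 in E, at 1449, 1156, 1400.3 and 1274 in T, and at 1244, 1279.8, 1414 and 1328 in TE. The log2 fold change for T vs C in edgeR was 0.38 (SE 0.12, adjusted p = 0.160) for Mybpc1 and 0.13 (SE 0.08, adjusted p = 0.482) for Mybpc2, the latter 0.061 without T1. Ttn, titin, ranged from 44.4 to 73.7 FPKM and was highest in E3.

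At the M-band, Myom1 and Myom2, the general and the fast-fiber myomesin, stayed within 175 to 223 and 163 to 195 FPKM. Myom3 (GRCm39 chr4:135487017-135542875) was at 5.02, 5.03, 5.10 and 6.67 FPKM in C, at 6.33, 5.79, 5.80 and 6.46 in E, at 5.28, 6.38, 13.1 and 11.4 in T, and at 6.94, 5.21, 5.06 and 5.30 in TE. Mice T3 and T4 were above every other mouse, whose highest value was 6.94 FPKM. In edgeR the log2 fold change of Myom3 was 0.74 (SE 0.20, adjusted p = 0.102) for T vs C and -0.69 (SE 0.20, adjusted p = 0.693) for TE vs T, and for T vs C it was 0.14 without mice T3 and T4.

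Among the Z-disc genes, Actn2 and Actn3 encode the alpha-actinins that cross-link actin, the latter only in fast fibers. Actn2 (GRCm39 chr13:12281303-12356693) was at 303, 329, 259 and 286 FPKM in C, at 285, 367, 262 and 359.7 in E, at 335, 327, 521 and 397 in T, and at 380.5, 252, 277 and 262 in TE. Actn3 (GRCm39 chr19:4911215-4928529) was at 1926, 1695, 1796 and 1758 FPKM in C, at 1622, 1338, 1493 and 1605 in E, at 2055, 1593, 2014 and 2015 in T, and at 1713, 1642, 1968 and 1916 in TE. For Actn2 the highest value was that of T3, and for Actn3 the E mice had the lowest mean. The log2 fold change of Actn3 in edgeR was -0.28 (SE 0.09, adjusted p = 0.209) for E vs C and 0.31 (SE 0.09, adjusted p = 0.247) for TE vs E, which share the E mice. Ctsf, on the opposite strand, shares 26.8% of the exon bases of Actn3, so that part of its counts is uncertain.

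Tcap (GRCm39 chr11:98274637-98275779) was at 2961, 2684, 2439 and 2792 FPKM in C, at 2146, 1742, 2067 and 1793 in E, at 2078, 2422, 1820.0 and 2094 in T, and at 1729, 2183, 2025 and 2542 in TE. Each C mouse was above each E and each T mouse in FPKM, and 1 TE mouse was within the C range. In CPM, which uses another scaling, the C and E mice were apart and the C and T mice overlapped. For Tcap, edgeR gave a log2 fold change of -0.53 (SE 0.11, adjusted p = 0.0854) for E vs C, -0.34 (SE 0.11, adjusted p = 0.173) for T vs C and 0.18 (SE 0.11, adjusted p = 0.669) for TE vs E, the last 0.27 without TE1 and 0.10 without TE4. The adjusted p of Tcap for E vs C was 0.0210 where edgeR was fitted to those groups only and 0.00231 in DESeq2.

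Myozenins, or calsarcins, bind alpha-actinin and calcineurin, with Myoz1 typical of fast and Myoz2 of slow and heart muscle. Myoz1 was at 1486, 1362, 1238 and 1277 FPKM in C, at 1246, 1139, 1223 and 1251 in E, at 1313, 1194, 1191 and 1139 in T, and at 1241, 1253, 1332 and 1364 in TE. Myoz2 (GRCm39 chr3:122797610-122828664) was at 129, 123, 103 and 151 FPKM in C, at 120.1, 120.2, 121 and 158 in E, at 128, 149, 261 and 227 in T, and at 130.4, 117, 133 and 139 in TE. As for Myom3, T3 and T4 were the highest of the 16 mice for Myoz2, and they were among the lower values for Myoz1. The log2 fold change in edgeR was 0.61 (SE 0.17, adjusted p = 0.111) for Myoz2 in T vs C and -0.18 (SE 0.08, adjusted p = 0.301) for Myoz1 in E vs C, which was -0.11 (unadjusted p = 0.149 in edgeR) without C1. Myoz3 ranged from 36.3 FPKM in T3 to 54.3 FPKM in E1.

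Flnc (GRCm39 chr6:29433072-29461887), filamin C, which is recruited to damaged myofibrils as well as to the Z-disc, was at 52.98, 69.2, 50.8 and 56.6 FPKM in C, at 79.99, 73.9, 58.8 and 68.5 in E, at 79.7, 71.6, 144 and 71.8 in T, and at 80.6, 49.2, 64.2 and 50.7 in TE. Mouse T3 had the highest value, and the other T mice were within the range of E. Flnc had a log2 fold change for T vs C in edgeR of 0.70 (SE 0.20, adjusted p = 0.109), and it was 0.41 without T3. Synpo2l was at 35.7, 36.2, 35.5 and 35.5 FPKM in C, at 32.7, 28.6, 37.6 and 33.6 in E, at 32.8, 33.8, 30.8 and 36.7 in T, and at 32.3, 30.2, 33.3 and 29.8 in TE. Its C values lay close together, and none of the 4 pairwise comparisons reached an unadjusted p under 0.05. Myot, myotilin, a filamin partner, had a log2 fold change of 0.18 (SE 0.07, adjusted p = 0.256) for T vs C and -0.21 (SE 0.07, adjusted p = 0.724) for TE vs T in edgeR, the first 0.11 without T3, and Mypn, myopalladin, ranged from 69.6 to 87.2 FPKM.

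The LIM-domain genes encode adaptors that bind alpha-actinin through a PDZ domain (Ldb3 and the Pdlim genes) or titin (Fhl1). Pdlim1 (GRCm39 chr19:40209617-40260533) was at 41.3, 50.9, 40.9 and 51.9 FPKM in C, at 47.3, 42.4, 43.4 and 51.2 in E, at 52.1, 57.4, 70.97 and 61.6 in T, and at 52.98, 40.7, 41.9 and 46.2 in TE. The T mice were above all C mice, with a narrow gap between T1 and C4, and 3 of 4 of them were above all other mice. For Pdlim1 the log2 fold change in edgeR was 0.41 (SE 0.10, adjusted p = 0.0726) for T vs C and -0.43 (SE 0.10, adjusted p = 0.590) for TE vs T, and for T vs C it was 0.29 without T3 and T4. Fhl1 reached 605 FPKM in T3, beside 286 to 508 FPKM elsewhere, and Pdlim3 was highest in TE1, at 409.85 FPKM. Ldb3, cypher, ranged from 261 to 319 FPKM.

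Des, desmin, the intermediate filament that joins neighboring Z-discs, was at 1012 and 1145 FPKM in T3 and T4 and at 729 to 893 FPKM in the other 14 mice. Its log2 fold change in edgeR was 0.25 (SE 0.09, adjusted p = 0.207) for T vs C and -0.22 (SE 0.09, adjusted p = 0.793) for TE vs T, and these were 0.15 and -0.12 without T4. Cmya5, myospryn, a desmin partner, had a log2 fold change of 0.28 (SE 0.11, adjusted p = 0.243) for T vs C in edgeR, and 16.05% of its exon bases are shared with a non-coding gene on the opposite strand. Smpx, a small costamere protein, was lowest in T4, at 211 FPKM.

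**Figure D3:**
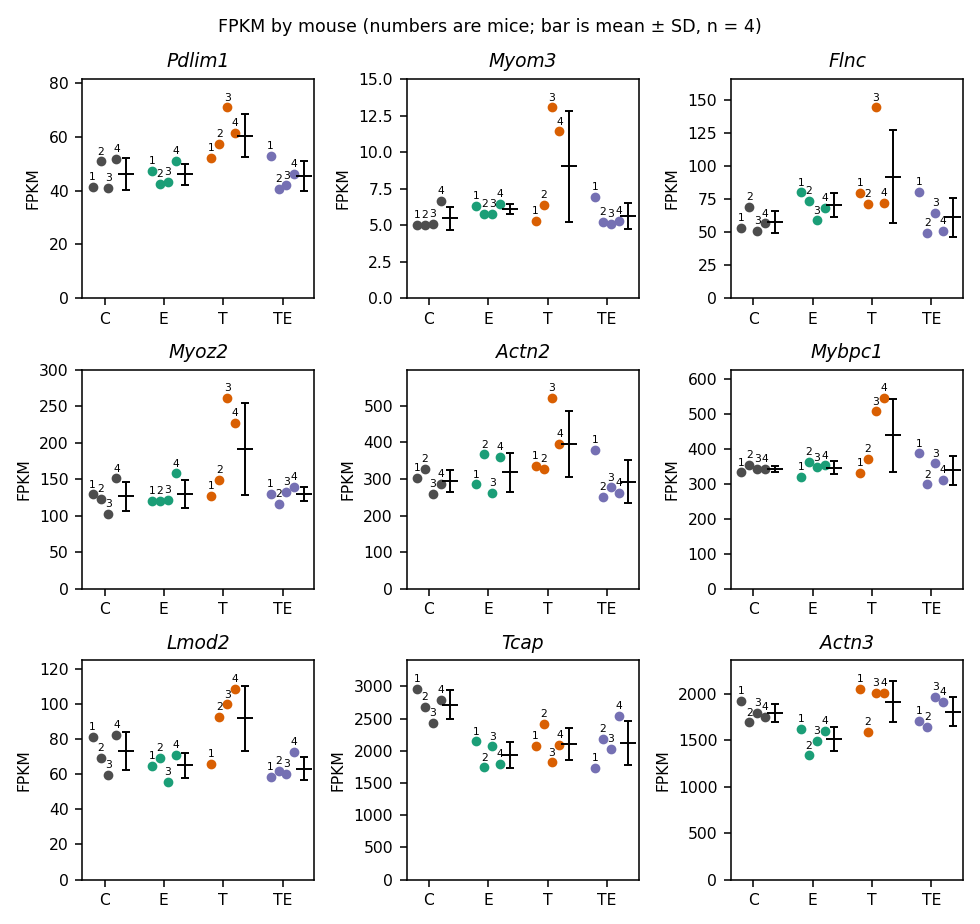
FPKM (vertical axes from 0) of 9 genes in the 4 groups, with 1 numbered point for each mouse and the mean ± SD beside them. Mice T3 and T4 are highest for Myom3, Myoz2 and Mybpc1, T3 is alone at 144 FPKM for Flnc, and the C mice are above the E and T mice for Tcap.

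Mice T3 and T4 held many of the highest values of these genes. Of the 34 genes, 12 had their highest value of the 16 libraries in T3 and 7 in T4, and 5 had their lowest in T3 and 2 in T4, so that these mice held 19 of the highest and 7 of the lowest values. TE2 alone also held 7 of the lowest values. This was seen after the values were known and has no test. Highest in T4 were Acta1, Tpm2, Des, Lmod2, the slow-type Mybpc1 and Tpm3 and the fast-fiber Myom2. Highest in T3 were Myot, Fhl1, Actn2, Ldb3, Cmya5, Myom1, Mypn, Pdlim5, Flnc, Pdlim1, Myom3 and the slow-type Myoz2. Lowest were Tpm1, Tmod4, Lmod3, Tmod1 and Myoz3 in T3 and Myoz1 and Smpx in T4. In the same mice the slow fiber sum was 1972 CPM in T3 and 2909 CPM in T4, but it was also 2110 CPM in C4, where Myom3 was at 6.67 FPKM and Myoz2 at 151 FPKM. Myh2, the myosin of fast oxidative fibers, was at 576 FPKM in T3 and 536 FPKM in T4 and at 320 to 428 FPKM elsewhere. Myh3, the embryonic myosin that marks regenerating fibers, was at 1.27 FPKM in T3 and 11.6 FPKM in T4 and at no more than 0.54 FPKM in the other 14 mice. The sum of the 7 embryonic and regenerating fiber markers was the lowest of the 16 libraries in T3 (97.2 CPM) and the highest in T4 (273 CPM). Actc1, cardiac alpha-actin, was at 30.9 FPKM in T3 and at 52.8 to 113 FPKM elsewhere, and Myh8, the perinatal myosin, was at 3.61 FPKM in T3, at 8.47 FPKM in T4 and at 3.36 to 5.29 FPKM elsewhere. The slow fiber sum is set against each gene further on, and the part of Myh2 and Myh3 in the values above was not tested.

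**Figure D4:**
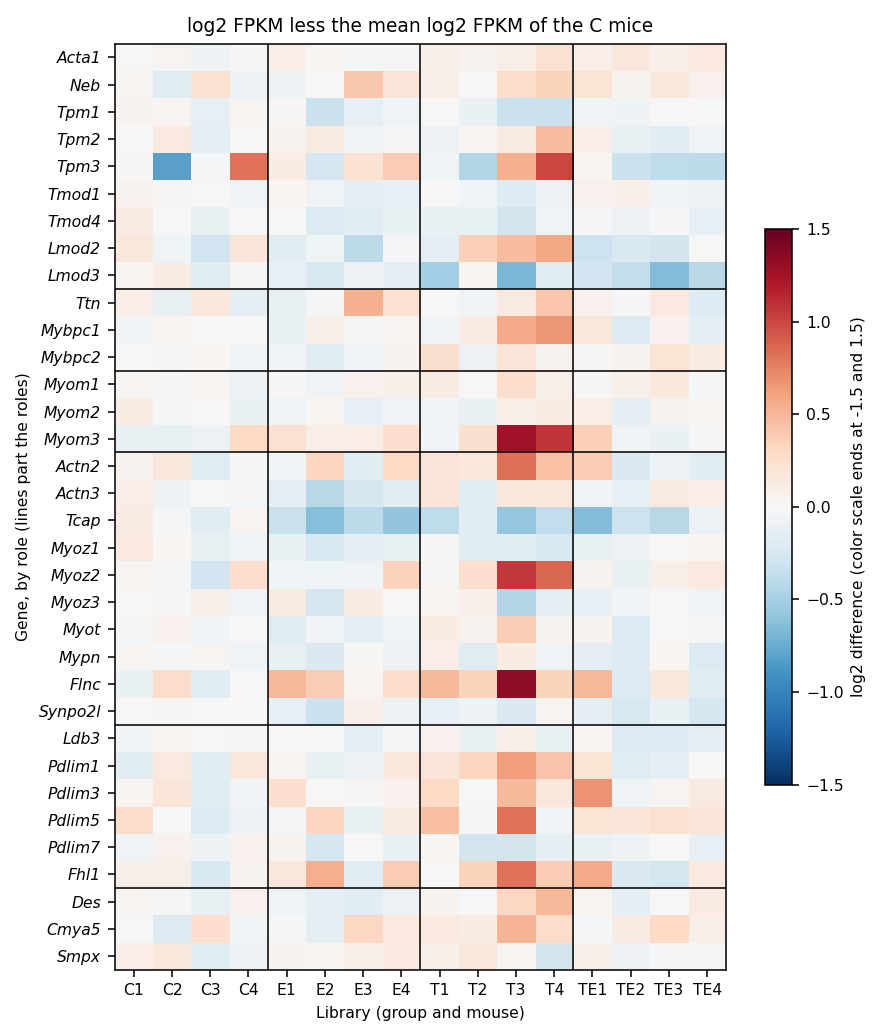
Log2 FPKM of the 34 genes (rows, by role) in the 16 libraries (columns) less the mean log2 FPKM of the C mice, from blue (lower) to red (higher). The columns T3 and T4 hold the highest value in 19 of 34 rows, Tpm3 differs between mice within every group, and Tcap is blue in all E and T columns.

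Some lists of markers of other cells differed between groups as well, and others overlapped between groups or were high in single mice. Neutrophil markers summed to 7.99 to 42.6 CPM in T and 0.632 to 3.43 CPM in C, and all 5 of the 5 tested (of 6 listed) passed in edgeR for T vs C. Embryonic fiber markers summed to 97.2 (T3) to 273 (T4) CPM in T and 134 to 192 CPM in C, with 0 of the 6 tested passing and 2 at an unadjusted p under 0.05. For E vs C, tendon markers summed to 146 to 243 CPM in E and 75.3 to 90.25 CPM in C, and 2 of 6 (Fmod and Tnmd) passed in edgeR. Smooth muscle markers, of which none passed and 4 of 7 had an unadjusted p under 0.05, summed to 968 to 1033 CPM in E and 847 to 946 CPM in C. Flnc, Des and Tpm2 are also expressed in smooth muscle. Adipocyte markers summed to 40.3 to 224 CPM in E and 13.0 to 69.7 CPM in C, and lymph node markers reached 92.9 CPM in TE4 and 29.1 CPM or less elsewhere. At an unadjusted p under 0.05 these lymph node markers were lower in T vs C (6 of 9, median log2 fold change -4.77). At that level they were higher in TE vs T (8 of 9, median 6.22) and above 0 for the interaction (8 of 9, median 6.11). None passed in edgeR. Mice TE1, TE2 and TE3 were at 1.11, 0.446 and 0.804 CPM, within the range of T, so the higher TE mean rests on TE4. In C the sum was 9.43 CPM in C2 and 29.1 CPM in C3, beside 0.641 CPM in C1 and 1.81 CPM in C4. For TE vs E, tendon markers summed to 77.5 to 111 CPM in TE, with Fmod and Tnmd lower in edgeR (adjusted p = 0.0371 and 0.0104). In the same comparison 4 of 5 neutrophil markers were higher (median log2 fold change 2.56) and 4 of 7 smooth muscle markers lower at an unadjusted p under 0.05, and none of these passed. For tumor over both training states all 5 neutrophil markers tested passed in edgeR and Tnmd was lower (adjusted p = 0.0241). For training over both tumor states, 5 of 9 lymph node and 3 of 6 tendon markers were higher at an unadjusted p under 0.05. The median log2 fold change of the tendon markers was 0.53, and none of either list passed. Of the TE mice, only TE4 had a lymph node sum above the range of T. For the interaction, where Flnc was at -0.85 on the log2 scale, 5 of 7 smooth muscle and 5 of 6 tendon markers were below 0 at an unadjusted p under 0.05, and none passed in edgeR. For training over both tumor states 4 of 8 slow fiber markers had a lower mean at that level. Of these lists only the slow fiber markers were entered as a covariate, and the part of the others in the values of the sarcomere genes was not tested.

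Promoter sequence was read for 26 of the 34 genes from the RefSeq table of GRCm38.p6, from 250 bases before to 50 bases after each gene start. Shown are Acta1, the most abundant gene (chr8:123894726-123895025, minus strand), Myoz2 (chr3:123034938-123035237, minus strand) and Myom3 (chr4:135759465-135759764, plus strand), both highest in T3 and T4, and Pdlim1 (chr19:40271567-40271866, minus strand), with the smallest p for T vs C. Capitals mark matches to the CArG box of serum response factor, the MEF2 site, the MCAT motif CATTCC of TEAD factors or the TATA box TATAAA, searched on both strands.
Acta1: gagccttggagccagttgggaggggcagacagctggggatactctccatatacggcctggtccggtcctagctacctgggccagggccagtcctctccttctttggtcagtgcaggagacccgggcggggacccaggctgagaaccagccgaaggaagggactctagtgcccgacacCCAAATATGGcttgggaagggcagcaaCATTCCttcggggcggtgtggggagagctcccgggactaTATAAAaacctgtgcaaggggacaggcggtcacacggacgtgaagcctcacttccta
Myoz2: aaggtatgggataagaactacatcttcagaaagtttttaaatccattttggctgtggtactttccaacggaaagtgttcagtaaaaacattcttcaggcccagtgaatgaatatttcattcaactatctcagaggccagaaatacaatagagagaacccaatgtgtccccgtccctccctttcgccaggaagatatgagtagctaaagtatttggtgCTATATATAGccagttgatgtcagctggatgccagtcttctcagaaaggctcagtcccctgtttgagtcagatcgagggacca
Myom3: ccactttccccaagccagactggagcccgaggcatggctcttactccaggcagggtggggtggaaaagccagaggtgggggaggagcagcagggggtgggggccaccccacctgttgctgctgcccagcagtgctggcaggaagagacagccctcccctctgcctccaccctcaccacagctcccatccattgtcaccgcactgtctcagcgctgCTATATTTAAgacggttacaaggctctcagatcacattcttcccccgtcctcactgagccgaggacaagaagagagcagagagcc
Pdlim1: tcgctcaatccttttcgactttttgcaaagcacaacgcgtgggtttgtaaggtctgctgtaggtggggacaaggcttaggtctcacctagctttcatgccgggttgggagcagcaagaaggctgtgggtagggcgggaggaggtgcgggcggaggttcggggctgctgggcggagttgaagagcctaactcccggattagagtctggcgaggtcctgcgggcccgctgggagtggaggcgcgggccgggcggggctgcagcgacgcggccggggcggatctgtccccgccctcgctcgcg
Acta1 held a CArG box, an MCAT motif and a TATA box, Myoz2 and Myom3 each held a MEF2 site shortly before the gene start, and Pdlim1 held none of these.

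Over the 32 promoters listed for the 26 genes, 5 held a CArG box, 5 a MEF2 site, 9 an MCAT motif and 4 a TATA box, where 1.63%, 3.19%, 14.7% and 13.6% of the 32841 promoters of the table did. The E-box CANNTG, the site of MyoD family factors, was in 23 of 32 and in 72.3% of all. The CArG box was found for Acta1, Ldb3, Myom1 and Fhl1, and the MEF2 site for Ttn, Myoz2, Myom3 and Synpo2l. These are matches of letters, and binding was not measured.

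The ratio of a fast-type to a slow-type or less fiber-specific partner within a library does not depend on library size. For Myoz1 over Myoz2 it was at 11.5, 11.04, 12.04 and 8.45 in C, at 10.4, 9.48, 10.1 and 7.91 in E, at 10.3, 7.999, 4.56 and 5.01 in T, and at 9.52, 10.8, 10.01 and 9.80 in TE. T3 and T4 were the lowest of the 16 mice, and T2 was also below all C mice. For Actn3 over Actn2 the ratio was at 6.35, 5.16, 6.94 and 6.14 in C, at 5.69, 3.64, 5.70 and 4.46 in E, at 6.13, 4.87, 3.87 and 5.08 in T, and at 4.50, 6.53, 7.11 and 7.31 in TE. Here T3 and E2 were lowest, and the groups overlapped. The mean log2 ratio differed between T and C by -0.69 for Myoz1 over Myoz2 and by -0.31 for Actn3 over Actn2, each with p = 0.0571 (exact permutation test, two-sided, n = 4 each, smallest possible p 0.0286) and an adjusted p of 0.536 over 24 tests. Without T3 these differences were -0.52 and -0.20.

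The other 4 ratios gave no smaller p. Mybpc2 over Mybpc1 was 3.45 to 3.73 in C, 3.01 to 3.75 in E, 2.34 to 4.39 in T and 3.21 to 4.29 in TE. Tpm1 over Tpm2 was 2.88 to 3.22 in C and 1.81 to 3.32 in T, and Tpm1 over Tpm3 was 107 to 332 in C and 73.8 to 232 in T. Both had their lowest value in T4. Tmod4 over Tmod1 stayed within 2.13 to 2.51 in all mice.

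The relation of each gene to the slow fiber content was taken over the 16 libraries, as the correlation of its log2 CPM with the log2 of the summed CPM of the 8 slow fiber markers. Tpm3 followed that sum closely, with Pearson's r = 0.968 and Spearman's rho = 0.976 (permutation test, n = 16, p = 1e-05, the smallest that 100000 resamples give, adjusted p = 0.00034 over 34 genes), and with r = 0.974 after the group means were removed. Without C4 and T4, the libraries farthest from the median, r was 0.941. Myom3 had r = 0.797 (permutation p = 0.00124, adjusted p = 0.0211) and rho = 0.688 (permutation test, adjusted p = 0.0709), with r = 0.756 without those libraries. Myoz2 had r = 0.717 (permutation p = 0.00439, adjusted p = 0.0498) and rho = 0.374 (permutation test, adjusted p = 0.595), with r = 0.610 without them. Without T4 alone the adjusted p of r (permutation test) was 0.345 for Myoz2 and 0.0915 for Myom3. With group means removed, r was 0.798 for Myom3 and 0.698 for Myoz2, with adjusted p-values of 0.206 and 0.538 (permutation test). For the other 31 genes the adjusted p of r was above 0.05.

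**Figure D5:**
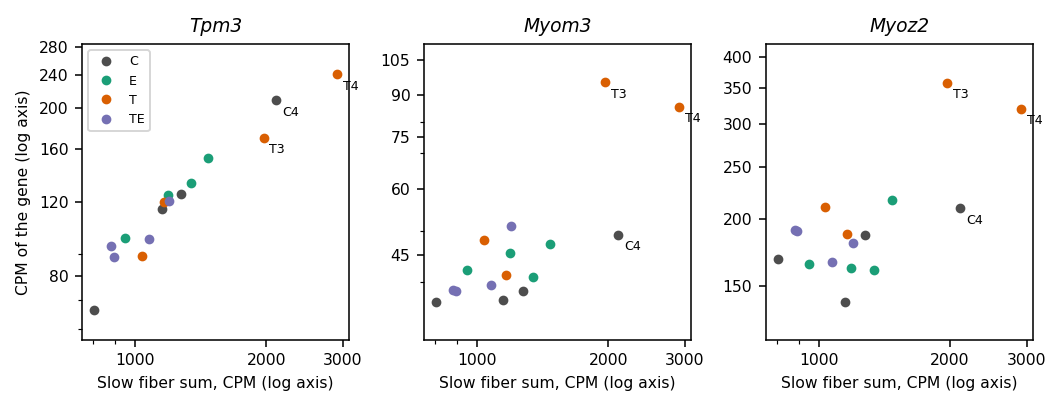
CPM of Tpm3, Myom3 and Myoz2 (vertical log axes) against the summed CPM of 8 slow fiber markers (horizontal log axis) in the 16 libraries, colored by group. Tpm3 lies along a line (r = 0.968), whereas for Myom3 and Myoz2 mice T3 and T4 lie above C4, whose slow fiber sum is 2110 CPM.

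Over both training states, the tumor coefficient had 0 of 34 genes past the test in edgeR, beside 1.36% of all genes tested, and 14 at an unadjusted p under 0.05, beside 14.2%, with 13 higher (7.41% of all) and Lmod3 lower (6.81%). The 14 were 8 without T3. DESeq2 called Acta1 and Des, beside 3.0% of the genes it gave an adjusted p. The training coefficient over both tumor states also gave 0 genes in edgeR (0.00678% of all genes tested), with 10 at an unadjusted p under 0.05, all lower (10.8% of all genes tested, 4.8% lower), and DESeq2 called Lmod2 (0.735% of its genes). The 10 were 6 without TE2 and 6 with the slow fiber covariate. The interaction gave 0 genes in edgeR (0.0% of all genes tested) and in DESeq2 (0.14% of its genes) and 10 at an unadjusted p under 0.05 (9.21%), 3 of them above 0 (3.7%) and 7 below 0 (5.51%). The 10 were 5 without T3 or without TE2, 6 without C2, E2, E4 or T4, 2 without T3 and T4, and 2 with the slow fiber covariate. The coefficients of Tcap, Flnc and Myom3 were 0.52, -0.85 and -0.81 on the log2 scale, each with an adjusted p of 0.438 in edgeR, and that of Flnc was -0.56 without T3. The interaction coefficient is the difference of the training effect with and without tumor.

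Other genes of the same structures were set beside these. Of 29 other sarcomere genes (myosins, troponins, light chains, muscle ankyrin repeat proteins and others), 0 passed in edgeR in any comparison. For T vs C 6 had a higher and 1 a lower mean at an unadjusted p under 0.05 (8.23% and 5.96% of all genes tested), and for TE vs T 10 had a lower mean (3.01%). The genes named next were chosen after their values were seen. Csrp3, a stretch-responsive LIM protein, had a log2 fold change of 1.23 (SE 0.40, adjusted p = 0.163 in edgeR) for T vs C, and Ankrd2, a titin-binding ankyrin repeat protein of slow muscle, one of 1.07 (SE 0.34, adjusted p = 0.152 in edgeR). Mouse T3 stood apart for both, at 374 FPKM for Csrp3 (98.8 to 148 FPKM in the other T mice, 44.9 to 117 FPKM in C) and 296 FPKM for Ankrd2 (87.9 to 108 FPKM, 40.6 to 93.1 FPKM in C), and without T3 the log2 fold changes were 0.64 and 0.50. Of 14 assembly factors, 19 costamere genes and 13 regulators of sarcomere genes, 0 passed in edgeR in any comparison. For T vs C, 2 assembly factors and 3 costamere genes, Ank3 and Dmd among them, had a higher mean at an unadjusted p under 0.05. Among the regulators 4 were higher (Eya1, Mrtfb, Tead1 and Tead4) and Mrtfa, an actin-sensing cofactor of serum response factor, was lower, at -0.53 on the log2 scale (SE 0.16, adjusted p = 0.134 in edgeR). For E vs C, which shares the C mice, Eya1, Mrtfb, Tead1 and Tead4 had a higher and Mrtfa a lower mean at that level (8.51% and 5.67% of all genes tested), with Mrtfa at -0.42 (SE 0.16, adjusted p = 0.261 in edgeR). With a mouse left out, Tead4 (C1, C4, T3 or T4) and Mrtfb (T3) no longer reached that level in T vs C, nor did Tead1 (C2, C4 or E2), Tead4 (C4, E2 or E3) and Mrtfa (E2) in E vs C.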

How the data were processed

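Gastrocnemius RNA of 16 mice was compared between 4 groups named in the labels, with 4 mice described there as biological replicates in each. Per the submitters' processing notes, reads were trimmed with fastp 0.20.1, aligned with HISAT2 2.1.0 to GRCm39 and counted with HTSeq 0.11.2. The annotation release and strand setting are not given in the sources used here. The authors deposited raw counts per gene and FPKM values, which equal counts over library total and 1 length per gene (11001 genes checked, largest relative deviation 5.21e-16). There were 0 columns of other samples.

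Counts were tested with edgeR 4.0.16 in R 4.3.3 (filterByExpr, 14749 of 35415 genes kept; TMM factors; quasi-likelihood test; 1 coefficient per group; all 16 libraries; Benjamini-Hochberg over all genes tested per contrast). Intervals are for the log2 fold change between groups, with a spread estimated by edgeR from the 16 libraries, and are not ranges of single mice. Levels were read from the deposited FPKM. Ratios of partner genes were tested by exact permutation and correlations with 100000 resamples (scipy 1.17.1, numpy 2.4.6). Scripts were tested on simulated data. Genes given by mouse were the 3 with the smallest p in each of 4 comparisons, the partner pairs, and the 3 with the highest and the 3 with the lowest mean level. The genes and lists were chosen with earlier results of these data known. Gene positions are from GENCODE on GRCm39. Exons of 10 of the 34 genes overlap another counted gene, and reads of close paralogs (actins, tropomyosins) may be split. Alternatives were DESeq2 1.42.0, its size factors, no filter, only the groups compared, a robust fit, a replicate block, a slow fiber covariate, a pseudocount of 1 on FPKM, Myh7 alone as slow marker, each mouse left out and, chosen after seeing the data, T without mice 3 and 4. Histology and weights were not analysed here, and some gene names are not reported here.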

Additional observations from a re-analysis of the deposited data

Results flagged for a closer look

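Among the 18 genes given by mouse, 72 groups of 4 mice were screened for a mouse whose gap to the nearest other exceeds 0.829 of the range of its group, and 7 were found. Chance gives about 1 in 20 groups. Flnc was at 144 FPKM in T3, where the other T mice were at 71.6 to 79.7 FPKM. Actn3 was at 1593 FPKM in T2, beside 2014 to 2055 FPKM in the other T mice. Myom3 was at 6.67 FPKM in C4, beside 5.02 to 5.10 FPKM in C, and at 6.94 FPKM in TE1, beside 5.06 to 5.30 FPKM in TE. Tpm3 was at 17.0 FPKM in TE1, beside 12.6 to 13.4 FPKM in TE. Myoz2 was at 158 FPKM in E4, beside 120.1 to 121 FPKM in E. Tpm1 was at 2804 FPKM in C3, beside 3137 to 3166 FPKM in C. No reason for these values was tested.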

How the results depend on the processing

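With 4 mice a group and the spread seen, no gene of the 34 passed the adjusted test, and calls depended on the tool. In T vs C the count of genes past the adjusted test was 3 with DESeq2 and 2 without the filter on low counts (Myom3 and Pdlim1), and 0 to 1 with each mouse left out (Myom3 without T1 or T2). In E vs C it was 1 (Tcap) with DESeq2, without the filter, with only the groups compared, and without T3 and T4, and 0 to 1 with each mouse left out. For tumor over both training states it was 2 with DESeq2 and 0 to 3 with each mouse left out (Actn3, Des and Lmod3 without T2), and for training over both tumor states 1 with DESeq2. For TE vs T, TE vs E and the interaction it was 0 in every alternative run. Counts at an unadjusted p under 0.05 ranged, with each mouse left out, over 9 (without T3) to 20 in T vs C, 2 to 8 in E vs C (8 without C3, 6 without T3 and 5 without T4), 8 to 14 in TE vs T, 2 to 5 (without T2 or TE2) in TE vs E, 8 (without T3) to 16 for tumor, 6 (without TE2) to 13 for training and 5 (without T3 or TE2) to 14 for the interaction (6 without C2, E2, E4 or T4). Without T3 and T4 together they were 2, 7, 3, 5, 8, 7 and 2 in that order. With the slow fiber covariate they were 4 for TE vs T, 6 for training and 2 for the interaction, and 11 for T vs C, and with only the groups compared 7 for E vs C and 7 for TE vs E. The causes were not tested. Genes correlated with the slow fiber sum numbered 6 without C4 and 1 without T4. Mice of different groups that carry one number are different animals, and the correlation of same-numbered mice lay between -0.24 and 0.21 over 24 pairs. With the number as a block (pairing), the count at an unadjusted p under 0.05 for TE vs E was 6, and the block changed no call past the adjusted test. For the T vs C and TE vs T partner ratios the smallest possible p of 0.0286 over 24 tests leaves an adjusted p under 0.05 practically out of reach, so their alternatives say nothing of stability. No value past a threshold changed sign.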

Other observations

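Ttn, Neb and Cmya5, the 3 genes of the set with the longest transcripts by the length that the deposited FPKM imply (by merged exons Myom1 and Myom2 are longer than Cmya5), moved together from mouse to mouse. Ttn was at 73.7 FPKM in E3 and 68.0 FPKM in T4, its highest values, and Neb was at 294 and 279 FPKM in the same mice. Over the 16 libraries the log2 FPKM of Ttn and Neb had Pearson's r = 0.869 and Spearman's rho = 0.835 (permutation test, p = 4e-05 and p = 0.00012, adjusted p = 0.00012 and 0.00018 over 3 pairs), and r was 0.772 without E3 and T4. For Neb and Cmya5 r was 0.799 and rho 0.841 (permutation test, adjusted p = 0.00027 and 0.00018), with r = 0.732 without C2 and E3. For Ttn and Cmya5 r was 0.619 and rho 0.750 (permutation test, adjusted p = 0.0104 and 0.00109), with r = 0.567 without E3 and T4. The pairs were chosen after the values were seen, and RNA quality values of these libraries were not used here.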
